A study of Mus musculus with 6 samples.

Results

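The comparison set KP2 cells with an Irak4 knockout against knockout cells with Irak4 put back. It used 4 of the 6 libraries of the series, chosen by their titles: 2 knockout libraries (KO 1 and KO 2) and 2 knockout plus rescue libraries (rescue 1 and rescue 2). KP2 is a pancreatic cancer line established from a KPC mouse (C57BL/6J) and was used within 10 passages of its derivation. KPC mice are a genetic model that develops pancreatic cancer. All cells grew in DMEM with 10% serum and no further agent is named. The knockout came from lentiviral CRISPR vectors with guides against Irak4, and both the KO and the rescue libraries are titled as knockouts. The rescue had Irak4 added, and its construct, promoter and tag are not described. Whether the rescue cells were made from the KO cells sequenced here is not stated. Whether a line was 1 clone or a pool is not stated, nor whether a group's libraries are independent cultures, and p-values then reflect library-to-library spread that may be technical. The 2 wild-type libraries (WT 1 and WT 2), for which no vector is described, entered the fit and are shown as the reference level.

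IRAK4 is a serine/threonine kinase that binds the adaptor MYD88 when a Toll-like receptor or an interleukin-1 family receptor is engaged. In that complex, the myddosome, it recruits and phosphorylates IRAK1 and IRAK2, which pass the signal through TRAF6 to TAK1 and the IkB kinases. NF-kB and MAP kinase cascades then switch on inflammatory genes. In pancreatic cancer cells this pathway can be active without an added ligand.

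Library totals ranged from 7605328 to 11505983 counts, with the rescue libraries the shallowest. Values below are normalised CPM, scaled to the TMM-adjusted library total and given for library 1 and library 2 in that order. Mitochondrial transcripts took 1.97% and 2.33% of counts in KO cells and 1.86% and 1.3% in rescue cells, and the part of this difference in the results was not tested. The marker lists matched an epithelial culture only in part. The keratin genes Krt8, Krt18 and Krt19 were each at 1093 CPM or more in every library, Epcam was at 0 in all KO and rescue libraries, and summed epithelial markers were 5190 and 5527 CPM in KO cells and 6281 and 7002 in rescue cells. Summed markers lay between 4.53 and 5.33 CPM in these libraries for immune cells (9 of 16 at 0, Cd3e and Adgre1 among them). They lay between 1.27 and 2.29 for acinar and islet cells (10 of 12 at 0) and between 10.4 and 24 for fibroblasts (4 of 12 at 0). Most of the fibroblast sum came from Col1a1, at 11.9 and 7.45 CPM in KO cells and 15.5 and 20.5 in rescue cells. Col1a1 was called higher in the rescue (edgeR log2 fold change 0.87, SE 0.22, adjusted p = 0.024, and 0.050 with only the 4 KO and rescue libraries). Its call was also lost without KO 2 (log2 fold change 0.59) and without rescue 2 (0.64). Endothelial markers ranged from 14.9 to 38.2 CPM, nearly all from Cdh5. In bulk RNA a change in the share of cells that express a gene and a change per cell cannot be told apart.

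Irak4 itself (ENSMUSG00000059883, GRCm38, chr15:94543643-94581815) stood at 37.9 and 37.6 CPM in wild type, 20.4 and 21.8 in KO cells and 492 and 211 in rescue cells. Both rescue libraries lay far above every other library, and rescue 1 held more than rescue 2. The log2 fold change of rescue over KO was 4.06 (SE 0.32, adjusted p = 2.3e-04). It was 4.55 for rescue 1 alone and 3.33 for rescue 2 alone. In these fits the lone library is assumed to vary like the other groups, so no p-value is given for them. Across genes the rescue pair varied more, with an edgeR coefficient of variation of 10.5% against 6.1% in the KO and 5.1% in wild type. In counts, rescue 1 had 3881 and rescue 2 1586, and the counts do not separate the endogenous gene from an added one. The KO transcript persisted, which CRISPR mutations allow, so it checks the labels only in part. Irak4 overlaps Twf1, an actin-binding protein gene on the other strand, which stood at 123 and 125 CPM without the rescue and 111 and 109 with it.

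Across the transcriptome 1030 genes were higher in the rescue than in the KO (8.35% of 12339 genes tested) and 726 were lower (5.88%) at a Benjamini-Hochberg adjusted p under 0.05 in edgeR's quasi-likelihood test. Changes of 2-fold or more numbered 206 upward and 81 downward. In each of the 1030 and 726 genes both rescue libraries lay on one side of both KO libraries. Over all tested genes 3618 had rescue libraries above KO libraries and 3711 below, and the median log2 fold change was 0.00. Counts of list members under a changed setting, given below, are to be read beside the count over all genes in that setting. The shares of 8.35% and 5.88% hold for the main test only. The counts over all genes depended on single libraries. They were 139 higher and 64 lower without KO 2, 429 and 249 without KO 1, 684 and 391 without WT 1, and 684 and 390 without WT 2.

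The rescue libraries differed from each other more than the pairs of the other groups. Taken alone against the KO, rescue 1 gave 498 genes higher (3.9% of 12758 tested) and 274 lower (2.15%). Rescue 2 alone gave 1849 higher (14.5% of 12782) and 1596 lower (12.5%) while its Irak4 level was the lower of the pair. Rescue 2 was the further from the KO in 927 of the 1030 genes called higher and in 633 of the 726 called lower. The SD of the log2 difference between the libraries of a group was 0.37 in the rescue, 0.29 in the KO and 0.26 in wild type. Genes at least 2-fold apart numbered 334 (2.71%) between the rescue libraries, 226 of them higher in rescue 2. They numbered 169 (1.37%) between the KO libraries and 89 (0.721%) between the wild-type libraries. These are single libraries, so the difference between rescue 1 and rescue 2 has no test. Counts with rescue 1 or rescue 2 alone, here and below, take their spread from the KO and wild-type pairs, which lay closer together. They hold no spread between rescue libraries and describe these libraries only.

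**Figure D1:**
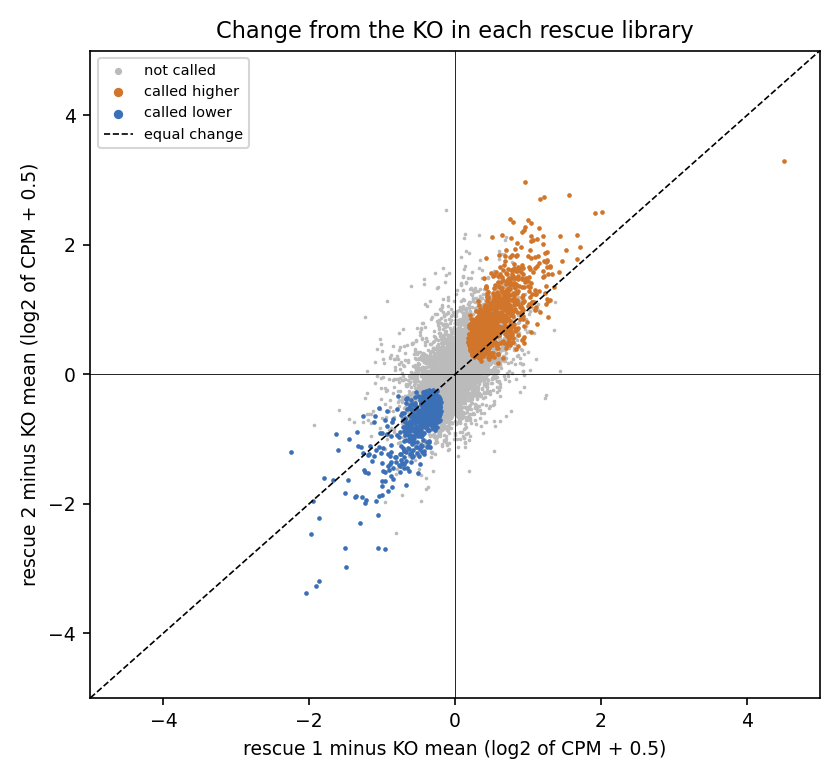
Change of each tested gene from the KO mean on a log2(normalised CPM + 0.5) scale, with rescue 1 on the horizontal and rescue 2 on the vertical axis; each point is 1 gene. Most of the 1030 genes called higher and 726 called lower lie further from 0 on the rescue 2 axis, while the outermost point at the upper right, Irak4, lies further out on the rescue 1 axis.

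Genes higher in wild type than in the KO tended to be higher in rescue 2 than in rescue 1. Across 12339 genes, rescue 2 minus rescue 1 and the wild-type mean minus the KO mean, which share no library, had a Pearson correlation of 0.41 and a Spearman correlation of 0.49. This is a description across genes, which share the depth and scaling of each library and are not independent replicates. On a scale where 0 is the KO mean and 1 the wild-type mean, genes called lower in the KO than in wild type (2905, or 23.5%) had a median position of 0.31 in rescue 1 and 0.61 in rescue 2. Genes called higher in the KO (2867, or 23.2%) had medians of 0.29 and 0.56. Rescue 2 lay further than rescue 1 in the wild-type direction in 2314 (79.7%) of the former and 2300 (80.2%) of the latter. These counts include genes in which rescue 2 passed the wild-type mean. The scale shares the KO and wild-type libraries with the calls that chose these genes, so the positions describe these libraries only.

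**Figure D2:**
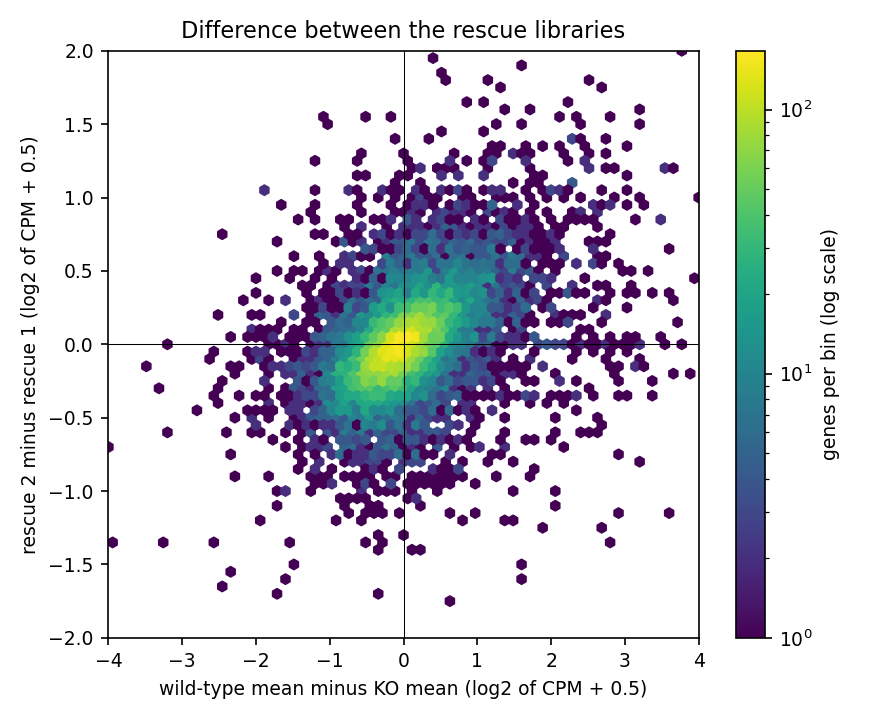
Rescue 2 minus rescue 1 (vertical axis) against the wild-type mean minus the KO mean (horizontal axis), both in log2(normalised CPM + 0.5), for 12339 tested genes, coloured by the number of genes in each bin on a log scale; 24 genes fall outside the axes. The cloud tilts upward to the right (Pearson correlation 0.41).

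Among called genes with a mean of at least 5 CPM over the 4 KO and rescue libraries, the 12 highest fold changes included Irak4, the secreted growth factors Pgf and Pdgfb, and Has2 and Thbs1, of the matrix. Has2, a hyaluronan synthase (GRCm38, chr15:56665627-56694539), was at 188 and 173 CPM in wild type, 37.2 and 21.7 in KO cells and 109 and 163 in rescue cells. Both rescue libraries lay above both KO libraries and below wild type, and rescue 2 came closer to wild type. Its log2 fold change was 2.18 (SE 0.22, adjusted p = 7.5e-04). The opposite-strand transcript Has2os had 0.585 and 0.573 CPM in KO 1 and KO 2 and 1.4 and 1.86 in rescue 1 and rescue 2. Pgf, a VEGF family ligand, was at 3.51 and 3.55 CPM in the KO libraries and 7.36 and 31 in the rescue, so that the 2 rescue libraries were further apart than KO 1 and KO 2, with a log2 fold change of 2.43 (SE 0.54, adjusted p = 0.015, and 0.087 to 0.098 without KO 1 or KO 2). Pdgfb, the B chain of platelet-derived growth factor, was closer between the libraries, at 17.7 and 12.8 CPM without the rescue and 50.7 and 60.3 with it, with a log2 fold change of 1.84 (SE 0.14, adjusted p = 2.3e-04).

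Thbs1, the matrix glycoprotein thrombospondin 1, had 93.1 and 67.6 CPM in KO 1 and KO 2 and 216 and 349.9 in rescue 1 and rescue 2, against 163 and 148 in wild type. Both rescue libraries exceeded both wild-type libraries, and the log2 fold change over the KO was 1.81 (SE 0.20, adjusted p = 0.001). Mirt1, a long non-coding RNA, had 9.11 and 6.53 CPM in the KO libraries and 23.1 and 30.6 in the rescue, and the rescue was likewise above wild type (15 and 12.9). Its log2 fold change was 1.75 (SE 0.19, adjusted p = 0.001). Another 5 of the 12 highest genes kept rescue 2 above rescue 1. Acap1, a GTPase-activating protein for ARF6, had 5.6 and 3.9 CPM without the rescue and 11.2 and 33.3 with it (log2 fold change 2.19, SE 0.41, adjusted p = 0.007, and 0.077 without KO 2). Kbtbd11, a BTB-Kelch protein gene, stood at 6.69 and 7.79 CPM in KO 1 and KO 2 and 15 and 39.7 in rescue 1 and rescue 2, with a log2 fold change of 1.92 (SE 0.38, adjusted p = 0.010, and 0.064 to 0.066 without KO 1 or KO 2). Kctd11, an adaptor for ubiquitin ligases, had 69.95 and 51.8 CPM in the KO libraries and 135 and 292 in the rescue, with a log2 fold change of 1.80 (SE 0.28, adjusted p = 0.003, and 0.051 without KO 2). Rescue 1 lay between the KO and wild type for Kctd11, and rescue 2 lay within the wild-type range of 322 and 268. Azin2, an antizyme inhibitor of polyamine metabolism, had 3.09 and 1.95 CPM without the rescue and 6.34 and 11.5 with it (log2 fold change 1.77, SE 0.31, adjusted p = 0.005, and 0.060 without KO 2). Cyp2s1, a cytochrome P450, was at 7.27 and 6.3 CPM in KO 1 and KO 2 and 15.3 and 30.4 in rescue 1 and rescue 2 (log2 fold change 1.73, SE 0.27, adjusted p = 0.003).

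**Figure D3:**
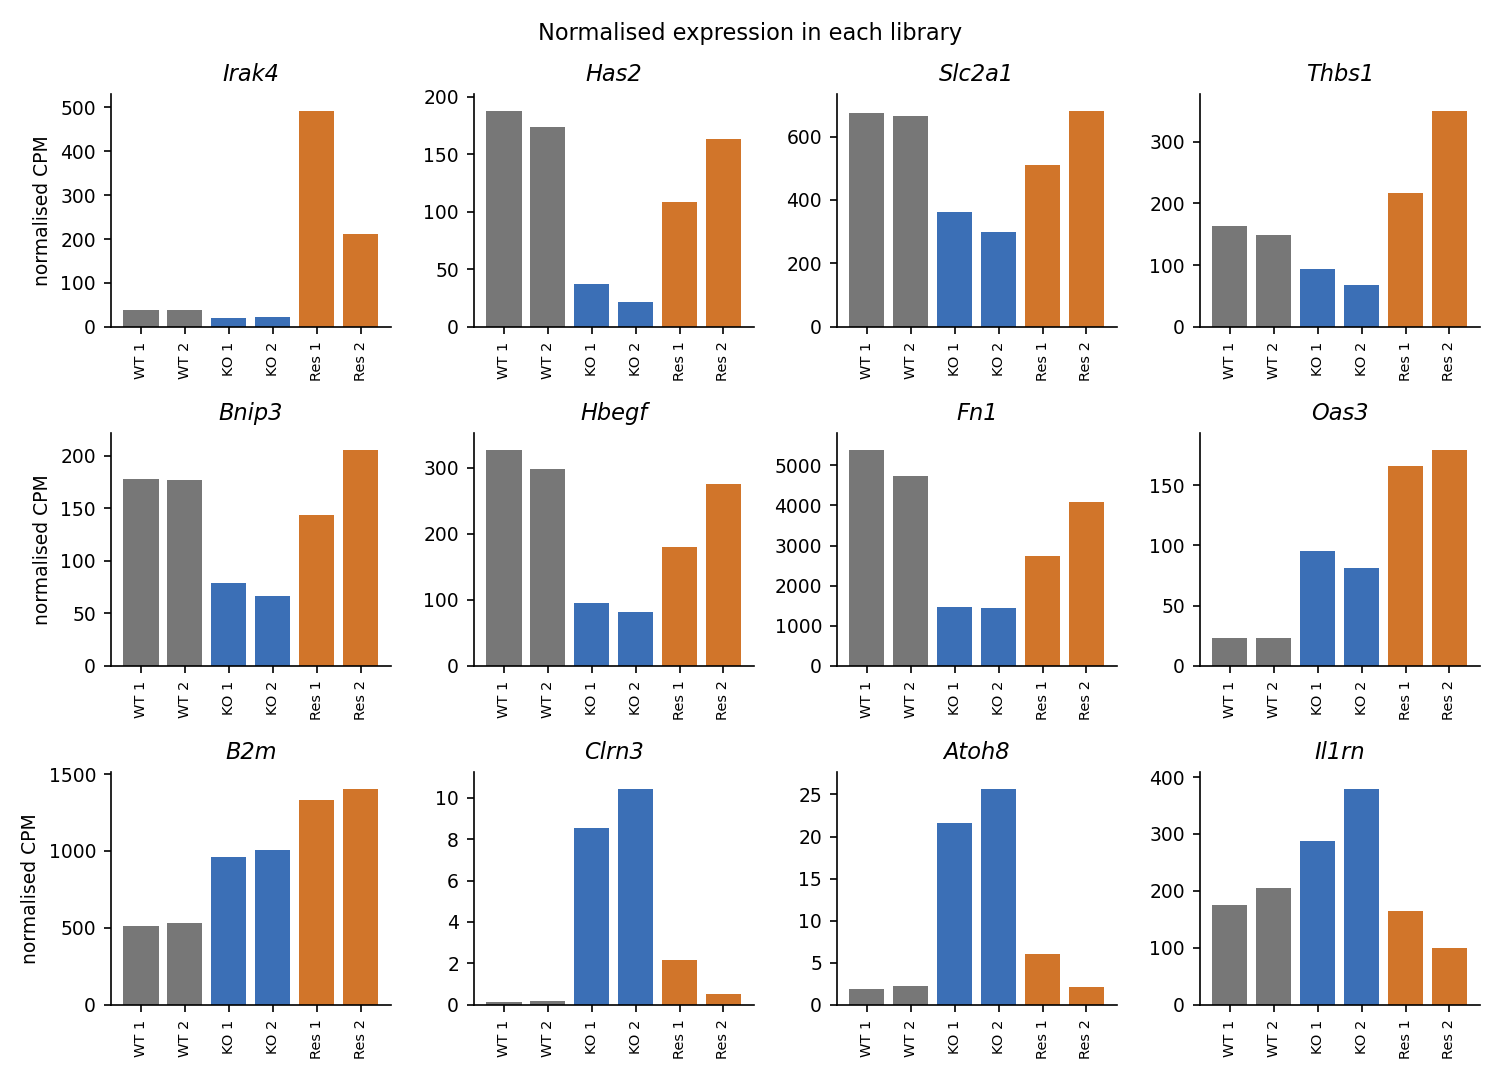
Normalised CPM of 12 genes in each of the 6 libraries (grey wild type, WT; blue KO; orange rescue, Res), 1 bar per library on a linear axis from 0. Rescue 1 is the highest library for Irak4, rescue 2 is the higher rescue library for Has2, Slc2a1, Thbs1, Bnip3, Hbegf and Fn1, and for Oas3 and B2m the rescue bars lie above the KO bars, which lie above wild type.

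Among the 12 lowest fold changes by the same rule, all genes but Aldh3a1 and Gimd1 had each KO library above WT 1 and WT 2, and came down in the rescue. Atoh8, a basic helix-loop-helix factor, was at 1.9 and 2.25 CPM in wild type, 21.6 and 25.7 in KO cells and 6.09 and 2.13 in rescue cells. Rescue 2 reached the wild-type level and rescue 1 lay between, with a log2 fold change of -2.50 (SE 0.29, adjusted p = 0.001). Clrn3, a tetraspan membrane protein gene, had 8.52 and 10.4 CPM in the KO libraries and 2.16 and 0.533 in the rescue (log2 fold change -2.78, SE 0.38, adjusted p = 0.002). Lgals4, a galectin of digestive epithelium, had 20.5 and 29.1 CPM without the rescue and 8.37 and 2.66 with it (log2 fold change -2.14, SE 0.33, adjusted p = 0.003), and wild type at 7.84 and 9.38 lay between the KO and rescue 2. Aldh3a1, an aldehyde dehydrogenase, differed from this pattern, since its 10.4 and 15.6 CPM in wild type overlapped the 9.44 and 16.3 of the KO. In the rescue it was 3.04 and 2.26, below every other library, with a log2 fold change of -2.24 (SE 0.35, adjusted p = 0.003).

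Cpm, a membrane carboxypeptidase, was nearly equal in the 2 rescue libraries, at 29.5 and 37.1 CPM in KO 1 and KO 2 and 8.24 and 8.12 in rescue 1 and rescue 2 (log2 fold change -2.02, SE 0.17, adjusted p = 3.5e-04). Its wild-type level was 8.07 and 10.3 CPM, so the rescue reached the lower end of wild type. Ppp1r1b, which encodes the phosphatase inhibitor DARPP-32, had 81.7 and 95.6 CPM in the KO libraries and 33.7 and 23.3 in the rescue (log2 fold change -1.63, SE 0.15, adjusted p = 4.1e-04). Wnk4, a kinase that regulates ion transport, had 31.8 and 50.2 CPM without the rescue and 15.9 and 7.72 with it, and both wild-type libraries (11.3 and 11.4) lay between the rescue libraries. Its log2 fold change was -1.77 (SE 0.27, adjusted p = 0.003). The other genes of the 12 lowest were Myo15b, Serpinb1a, Aadat, Gfra1 and Gimd1, with log2 fold changes between -1.69 and -1.57. Aadat, an aminotransferase, had 19.6 and 19.1 CPM in KO 1 and KO 2 and 7.99 and 4.66 in rescue 1 and rescue 2, with 0.475 and 0.195 in wild type. Myo15b, a myosin-like gene, had a log2 fold change of -1.69 (SE 0.34, adjusted p = 0.010, and 0.093 to 0.098 without KO 2 or in DESeq2). Gimd1, a GTPase-like gene, had one of -1.57 (SE 0.39, adjusted p = 0.023, and 0.065 to 0.160 without KO 2 or rescue 2).

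In the receptor pathway around Irak4, 2 members passed the test. Of 36 members found in the files 26 were tested, and Irak4 was the member that rose and Myd88 the member that fell, beside 8.35% higher and 5.88% lower among all genes, with a median log2 fold change of 0.00 over the list against 0.00 over all genes. Myd88, the adaptor that IRAK4 binds, was at 10.8 and 11.4 CPM in wild type, 23.1 and 23.4 in KO cells and 17 and 14.6 in rescue cells. The rescue libraries lay between wild type and KO, with a log2 fold change of -0.55 (SE 0.14, adjusted p = 0.022, and 0.098 to 0.120 without KO 1, KO 2 or rescue 2 or in DESeq2). Irak1, the kinase next in the chain, had 97.1 and 104 CPM in the KO libraries and 94 and 103 in the rescue, a log2 fold change of -0.02 (adjusted p = 0.882). Its libraries overlapped between the groups. Traf6, the ubiquitin ligase downstream, had 39.4 and 33.7 CPM without the rescue and 39.3 and 43.3 with it (adjusted p = 0.343). Map3k7, which encodes TAK1, had 89.6 and 78.7 CPM in KO 1 and KO 2 and 77.2 and 67 in rescue 1 and rescue 2 (adjusted p = 0.156). Neither gene was called. The members that rose numbered 3 with rescue 2 alone and 2 with no filter, and those that fell 0 without KO 1 (edgeR, with 2 at an unadjusted p under 0.05), 0 without KO 2 (edgeR, with 3 at an unadjusted p under 0.05), 5 with rescue 2 alone, 0 in DESeq2 (DESeq2, with 1 at an unadjusted p under 0.05) and 2 with no filter.

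NF-kB target genes split, and most did not pass the test. Among 31 tested targets and feedback inhibitors of 34, 8 rose and 4 fell, with a median log2 fold change of 0.05 (median difference from the KO mean of 0.06 in rescue 1 and 0.06 in rescue 2, where wild type was 0.93). Among all genes tested 8.35% rose and 5.88% fell. Ier3, an early response gene, was at 962 and 892 CPM in wild type, 181 and 143 in KO cells and 345 and 503 in rescue cells. It rose by a log2 fold change of 1.38 (SE 0.16, adjusted p = 0.001) and remained below wild type in both libraries. Tnfaip3, which encodes the feedback inhibitor A20, had 65.9 and 62.5 CPM in the KO libraries and 97 and 144 in the rescue against 193 and 191 in wild type. Its log2 fold change was 0.91 (SE 0.15, adjusted p = 0.004, and 0.054 without KO 2). Ptgs2, which makes prostaglandins, had 145 and 101 CPM without the rescue and 187 and 297 with it against 739.5 and 745, with a log2 fold change of 0.97 (SE 0.19, adjusted p = 0.010, and 0.106 without KO 2). For both genes rescue 2 was the nearer to wild type and neither library reached it. Nfkbia, the IkB-alpha inhibitor, had 41.4 and 40.2 CPM in KO 1 and KO 2 and 46.4 and 58.2 in rescue 1 and rescue 2, and its log2 fold change of 0.36 did not pass (adjusted p = 0.061). The members that rose numbered 5 without KO 1, 1 without KO 2 and 4 with rescue 1 alone, and those that fell 2 without KO 1, 0 without KO 2 (edgeR, with 4 at an unadjusted p under 0.05) and 2 with only the 4 KO and rescue libraries.

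The chemokine genes Ccl2, Cxcl1 and Cxcl5, lower in the KO than in wild type, fell further in the rescue. Ccl2, a monocyte attractant, was at 67.3 and 78.4 CPM in wild type, 49.9 and 50.2 in KO cells and 33.2 and 22 in rescue cells. The 3 groups did not overlap, and rescue 2 was the lowest library, with a log2 fold change of -0.85 (SE 0.16, adjusted p = 0.006, and 0.056 without KO 2). Cxcl5, a neutrophil attractant, had 23.3 and 24.8 CPM in wild type, 31 and 25 counts in KO cells and 5 and 0 counts in rescue cells. The fitted log2 fold change of -3.01 (SE 0.58, adjusted p = 0.009, and 0.057 without KO 2) rests on few counts. Cxcl1, a neutrophil attractant as well, had 44 and 39.1 CPM in the KO libraries and 24 and 32.6 in the rescue, with 156 and 183 in wild type and a log2 fold change of -0.56 (SE 0.15, adjusted p = 0.028, and 0.052 to 0.170 without KO 1, KO 2 or rescue 1 or with only the 4 KO and rescue libraries). In all 3 genes the order was wild type, KO, rescue. Il1rn, the interleukin-1 receptor antagonist, was higher in the KO than in wild type, at 287 and 379 against 176 and 205 CPM. It fell to 164 and 99.2 in the rescue (log2 fold change -1.34, SE 0.19, adjusted p = 0.003), where both libraries lay below wild type. Some secreted factors moved the other way. Lif, an interleukin-6 family cytokine, rose from 72.1 and 51 CPM to 101 and 168 (log2 fold change 1.11, SE 0.21, adjusted p = 0.007, and 0.083 without KO 2). Il34, a ligand of the CSF1 receptor, had 36.5 and 33.9 CPM without the rescue and 48.4 and 73.4 with it (log2 fold change 0.78, SE 0.16, adjusted p = 0.010, and 0.096 without KO 2), and rescue 2 exceeded the 64.7 and 61.9 of wild type. Of 26 secreted factors tested of 34, 4 rose and 4 fell, beside 8.35% and 5.88% of all genes, with Csf2 and Ccl5 the other members that rose and a median of -0.02. The members that rose numbered 2 without KO 1, 0 without KO 2 (edgeR, with 4 at an unadjusted p under 0.05), 2 with rescue 1 alone and 2 with a stricter filter, and those that fell 1 without KO 2. This list shares Ccl2, Cxcl1, Lif and Csf2 with the NF-kB targets.

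Hypoxia-response genes rose together. These are genes that the transcription factor HIF switches on when its oxygen-dependent hydroxylases are slowed, and they cover glucose uptake, mitophagy, angiogenesis and collagen hydroxylation. Of 29 tested members of 33, 24 rose, against 8.35% of all genes tested, and the other 5 (Plod1, Pfkfb4, Stc2, Narf and Mif) did not pass. The median log2 fold change was 0.78. The median difference from the KO mean was 0.45 in rescue 1, 0.98 in rescue 2 and 1.21 in wild type, and rescue 2 was above rescue 1 in 25 of the 29. For this list and those below, such an order of single libraries was not counted over all genes. The count of risen members was 6 without KO 2, 21 with rescue 1 alone and 24 with rescue 2 alone.

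Bnip3, a mitophagy receptor (chr7:138890836-138909519), was at 178 and 177 CPM in wild type, 79.1 and 66.9 in KO cells and 143 and 206 in rescue cells. Rescue 2 exceeded wild type while rescue 1 lay below it, and the log2 fold change over the KO was 1.25 (SE 0.15, adjusted p = 0.001). Slc2a1, the glucose transporter GLUT1 (chr4:119108711-119137330), had 361 and 299 CPM in KO 1 and KO 2 and 509 and 681 in rescue 1 and rescue 2, against 676 and 665 in wild type. Here too rescue 2 exceeded wild type, and the log2 fold change was 0.85 (SE 0.13, adjusted p = 0.003, and 0.053 without KO 2). Vegfa, the angiogenic growth factor, had 153 and 131 CPM in the KO libraries and 258 and 447 in the rescue, with 688 and 566 in wild type, a log2 fold change of 1.31 (SE 0.20, adjusted p = 0.003, and 0.052 without KO 2). Both rescue libraries remained below wild type for Vegfa. Car9, a carbonic anhydrase, was at 78.2 and 65.7 in wild type and at 3.84 and 5.39 CPM without the rescue and 10.8 and 9.32 with it, a log2 fold change of 1.15 (SE 0.21, adjusted p = 0.007, and 0.063 without KO 1) that left it far below wild type. Ak4, an adenylate kinase, had 51.9 and 46.8 CPM in KO 1 and KO 2 and 88.8 and 96.2 in rescue 1 and rescue 2 (log2 fold change 0.90, SE 0.09, adjusted p = 7.5e-04). It differed in that both rescue libraries exceeded the 86.4 and 85.9 of wild type. Mxi1, a MYC antagonist, had 64.9 and 60.7 CPM in the KO libraries and 104 and 155 in the rescue (log2 fold change 1.04, SE 0.15, adjusted p = 0.002). Plod2, a collagen lysyl hydroxylase, had 161 and 141 CPM without the rescue and 238 and 323 with it (log2 fold change 0.89, SE 0.13, adjusted p = 0.003). In each of these genes both rescue libraries lay above both KO libraries, with Car9 the one where rescue 1 was the higher of the pair. Egln3, an oxygen-sensing hydroxylase that acts on HIF itself, had 132 and 118 CPM in KO 1 and KO 2 and 168 and 247 in rescue 1 and rescue 2 (log2 fold change 0.73, SE 0.15, adjusted p = 0.010, and 0.108 without KO 2).

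Promoters of these genes were searched for the core of the hypoxia response element, ACGTG or GCGTG, on both strands, where CACGTG counts for either strand. The windows ran from 250 bases before to 50 after each start in RefSeq (GRCm38.p6), and 24 of the 29 tested members matched, with 34 promoters. ACGTG was found in 20 of these 34 (58.8%), against 25.7% of promoters of all tested genes and 19.6% of all promoters. GCGTG was found in 21 (61.8%), against 50.9% and 32.4%. The Bnip3 promoter (chr7:138909457-138909756, minus strand) and the Slc2a1 promoter (chr4:119108495-119108794, plus strand) are printed 5′ to 3′ on the gene's strand because both genes carry ACGTG and reached wild type in rescue 2. Capitals mark every match to either motif on either strand, and a match is a description of the letters, not a bound site.
Bnip3: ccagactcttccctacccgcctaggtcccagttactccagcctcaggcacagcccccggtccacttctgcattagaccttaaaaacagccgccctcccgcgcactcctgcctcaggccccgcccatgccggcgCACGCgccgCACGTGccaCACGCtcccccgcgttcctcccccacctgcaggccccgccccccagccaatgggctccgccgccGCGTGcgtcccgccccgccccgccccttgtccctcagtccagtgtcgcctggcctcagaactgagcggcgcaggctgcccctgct
Slc2a1: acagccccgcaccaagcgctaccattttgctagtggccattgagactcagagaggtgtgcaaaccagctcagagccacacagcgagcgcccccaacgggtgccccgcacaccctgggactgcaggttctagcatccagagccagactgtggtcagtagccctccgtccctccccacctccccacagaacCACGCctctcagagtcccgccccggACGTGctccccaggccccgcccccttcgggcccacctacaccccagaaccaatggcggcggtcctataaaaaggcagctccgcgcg

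Glycolytic enzymes, several of which are also HIF targets, rose less. Of 16 tested of 17, 9 rose, beside 8.35% of all genes, and the rest did not pass. The median log2 fold change over the 16 was 0.41 (0.23 in rescue 1, 0.54 in rescue 2 and 0.48 in wild type, from the KO mean). Pfkp, a phosphofructokinase, had 285 and 251 CPM in the KO libraries and 408 and 588 in the rescue and 633 and 583 in wild type, so that rescue 2 was at the wild-type level (log2 fold change 0.89, SE 0.14, adjusted p = 0.004, and 0.059 without KO 2). Hk2, a hexokinase counted in the hypoxia list too, had 168 and 136 CPM without the rescue and 205 and 299 with it (log2 fold change 0.73, SE 0.16, adjusted p = 0.014, and 0.059 to 0.137 without KO 2 or in DESeq2), below wild type at 433 and 370.4. Rescue 2 lay above rescue 1 in 15 of the 16 enzymes. Tpi1, triosephosphate isomerase, had 833 and 781 CPM in KO 1 and KO 2 and 1028 and 1146 in rescue 1 and rescue 2 (log2 fold change 0.43, SE 0.09, adjusted p = 0.012, and 0.119 without KO 2). Aldoc, an aldolase, had 52.6 and 63.1 CPM in the KO libraries and 75.7 and 102 in the rescue (log2 fold change 0.62, SE 0.13, adjusted p = 0.013, and 0.051 to 0.111 without KO 1 or KO 2) and stayed below the 164 and 159 of wild type. Gapdh had 84.3 and 71.2 CPM without the rescue and 101 and 115 with it (log2 fold change 0.46, SE 0.10, adjusted p = 0.015, and 0.052 to 0.152 without KO 2 or rescue 2), with reads that its many pseudogenes may share. The count of risen members was 4 without KO 1, 0 without KO 2 (edgeR, with 10 at an unadjusted p under 0.05), 5 with rescue 1 alone and 14 with rescue 2 alone.

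**Figure D4:**
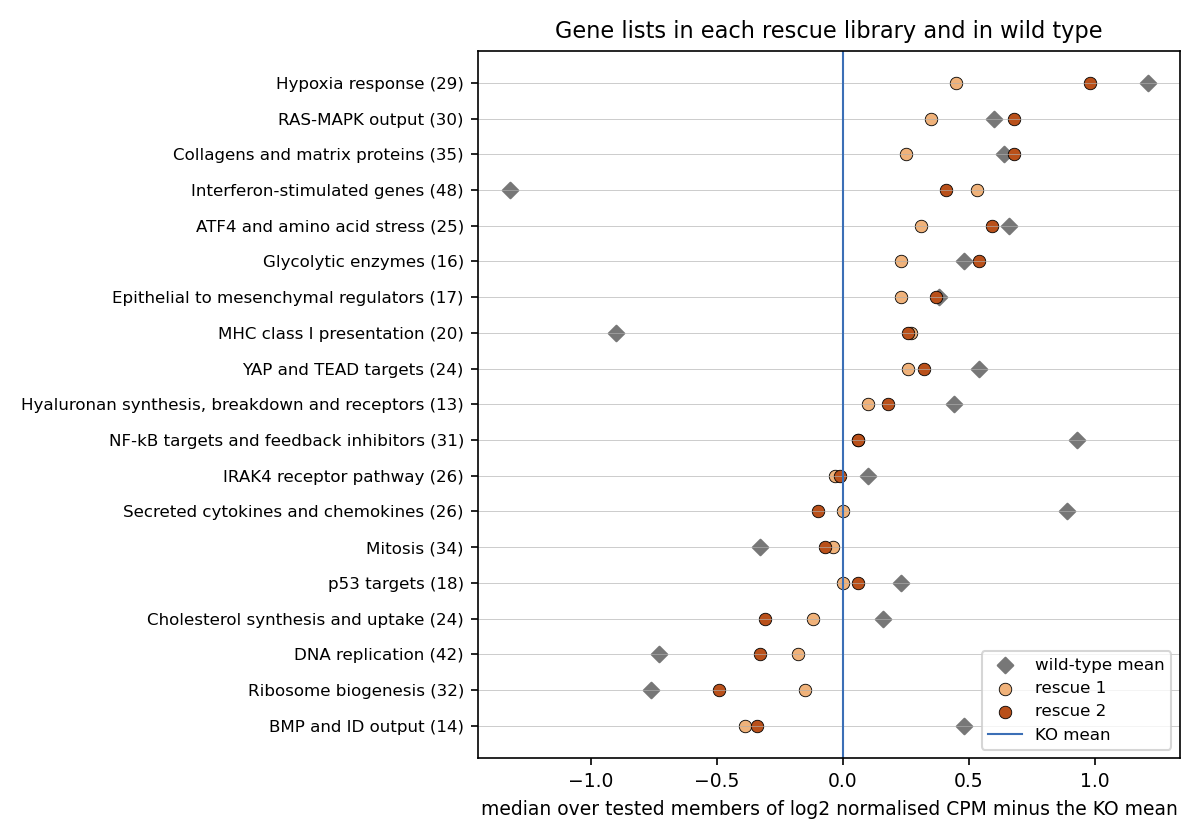
Median over the tested members of each gene list (number in brackets) of log2 normalised CPM minus the KO mean, for rescue 1 (light), rescue 2 (dark) and the wild-type mean (grey diamond); the vertical line is the KO mean. Hypoxia genes lie at 0.45 and 0.98 with wild type at 1.21, whereas interferon-stimulated genes lie at 0.53 and 0.41 with wild type at -1.32.

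Matrix genes rose in 18 of 35 tested members of 42, beside 8.35% of all genes, and Lamb2 and Timp2 fell. The median log2 fold change was 0.50, with a median difference from the KO mean of 0.25 in rescue 1, 0.68 in rescue 2 and 0.64 in wild type. Fn1, fibronectin (chr1:71585520-71653200), was at 5386 and 4732 CPM in wild type, 1458 and 1447 in KO cells and 2736 and 4084 in rescue cells. The 3 groups did not overlap, with rescue 2 nearer wild type, and the log2 fold change was 1.23 (SE 0.16, adjusted p = 0.002). Lamb3, a chain of laminin-332 in epithelial basement membrane, had 1.42 and 1.38 CPM in KO 1 and KO 2 and 5.58 and 7.99 in rescue 1 and rescue 2 (log2 fold change 2.26, SE 0.28, adjusted p = 0.002). Wild type was at 14.6 and 14.9, above both rescue libraries. Lama3, the alpha chain of that laminin, had 0.418 and 0.229 CPM in the KO libraries and 0.38 and 1.86 in the rescue and did not pass (log2 fold change 1.67, adjusted p = 0.158). Col7a1, the anchoring fibril collagen, had 418 and 378 CPM without the rescue and 637 and 812 with it (log2 fold change 0.86, SE 0.12, adjusted p = 0.003), and rescue 2 lay above both wild-type libraries (681 and 572). In Lamb1 neither rescue library exceeded wild type (669 and 607). Lamb1, a laminin chain of general basement membrane, had 328 and 299 CPM in KO 1 and KO 2 and 472 and 604 in rescue 1 and rescue 2 (log2 fold change 0.78, SE 0.12, adjusted p = 0.003). Tnc, tenascin C, had 17.3 and 11.8 CPM in the KO libraries and 19.4 and 51.1 in the rescue (log2 fold change 1.25, SE 0.34, adjusted p = 0.034, and 0.062 to 0.306 without WT 1, WT 2, KO 1, KO 2 or rescue 2, in DESeq2 or with only the 4 KO and rescue libraries). Col3a1, an interstitial collagen, overlapped between the groups, at 9.19 and 6.07 CPM without the rescue and 9.26 and 5.86 with it. Matrix genes that rose numbered 10 without WT 1, 10 without WT 2, 10 without KO 1, 6 without KO 2, 9 with rescue 1 alone and 9 with only the 4 KO and rescue libraries, and those that fell 1 without WT 1, 0 without WT 2 (edgeR, with 2 at an unadjusted p under 0.05), 1 without KO 1, 0 without KO 2 (edgeR, with 2 at an unadjusted p under 0.05), 0 with rescue 1 alone (edgeR, with 4 at an unadjusted p under 0.05) and 0 with only the 4 KO and rescue libraries (edgeR, with 2 at an unadjusted p under 0.05).

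Hyaluronan genes other than Has2 showed few calls. Of 13 tested of 21, Has2 and Hyal1 rose, beside 8.35% of all genes. Hyal1, a hyaluronidase, was at 5.52 and 4.93 CPM in KO 1 and KO 2 and 7.74 and 16.1 in rescue 1 and rescue 2 against 21.6 and 19.7 in wild type, and the rise lay mostly in rescue 2 (log2 fold change 1.17, SE 0.29, adjusted p = 0.023, and 0.052 to 0.208 without KO 1, KO 2 or rescue 2 or with only the 4 KO and rescue libraries). Cd44, the main hyaluronan receptor, had 964 and 973 CPM in the KO libraries and 1036 and 1193 in the rescue (log2 fold change 0.20, adjusted p = 0.161). The count of risen members was 1 without KO 1, 1 without KO 2, 1 with rescue 1 alone, 5 with rescue 2 alone and 1 with only the 4 KO and rescue libraries.

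Output genes of RAS-MAPK signalling rose in 17 of 30 tested members of 31, beside 8.35% of all genes, and the other 13 did not pass. The list gathers the growth factor ligands, immediate early transcription factors and feedback phosphatases that ERK induces. The median log2 fold change was 0.50 (from the KO mean, 0.35 in rescue 1, 0.68 in rescue 2 and 0.60 in wild type). Hbegf, an EGF receptor ligand, had 95.8 and 81.5 CPM without the rescue and 180.5 and 275 with it, with 328 and 298 in wild type. The groups did not overlap, and the log2 fold change was 1.36 (SE 0.16, adjusted p = 0.001). Areg, another EGF receptor ligand, had 63.1 and 48.6 CPM in KO 1 and KO 2 and 74.6 and 115 in rescue 1 and rescue 2 (log2 fold change 0.76, SE 0.17, adjusted p = 0.017, and 0.063 to 0.152 without KO 2 or rescue 2 or in DESeq2). Junb, an AP-1 subunit, had 373 and 361 CPM in the KO libraries and 661 and 817 in the rescue (log2 fold change 1.01, SE 0.11, adjusted p = 0.001), below wild type at 1179.5 and 1023. Dusp1 and Dusp5 are phosphatases that switch off MAP kinases. Dusp1 had 20.3 and 19.3 CPM without the rescue and 41.1 and 70.1 with it (log2 fold change 1.48, SE 0.20, adjusted p = 0.002). Dusp5 had 38.7 and 36.7 CPM in KO 1 and KO 2 and 68.9 and 105 in rescue 1 and rescue 2 (log2 fold change 1.21, SE 0.16, adjusted p = 0.002). Rescue 2 was above rescue 1 in both. Myc had 152 and 128 CPM in the KO libraries and 201 and 233 in the rescue (log2 fold change 0.63, SE 0.10, adjusted p = 0.004, and 0.063 without KO 2). Egr1, an immediate early factor, did not pass, at 58.2 and 38.8 CPM without the rescue and 59.3 and 76.7 with it (adjusted p = 0.082). The count of risen members was 10 without KO 1, 5 without KO 2 and 10 with rescue 1 alone.

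Targets of YAP and TEAD, the growth regulators that respond to cell shape and matrix stiffness, rose in 7 of 24 tested, beside 8.35% of all genes. Ccn2, connective tissue growth factor, was at 702 and 645 CPM in wild type, 306 and 242 in KO cells and 517 and 854 in rescue cells. Rescue 2 exceeded wild type and rescue 1 lay below it, with a log2 fold change of 1.32 (SE 0.19, adjusted p = 0.002). Ccn1, a related matrix signal protein, had 293 and 235 CPM in KO 1 and KO 2 and 471 and 577 in rescue 1 and rescue 2 (log2 fold change 0.99, SE 0.12, adjusted p = 0.002). Ankrd1, a nuclear ankyrin repeat protein, had 241 and 219 CPM in the KO libraries and 462 and 654 in the rescue (log2 fold change 1.28, SE 0.14, adjusted p = 0.001). In all 3 genes rescue 2 was above rescue 1. Gadd45b, a stress response gene, had 7.35 and 7.11 CPM without the rescue and 15.3 and 19.98 with it (log2 fold change 1.28, SE 0.17, adjusted p = 0.002). Amotl2, a YAP-binding motin, had 147 and 139.8 CPM in KO 1 and KO 2 and 201 and 228 in rescue 1 and rescue 2 (log2 fold change 0.58, SE 0.09, adjusted p = 0.004, and 0.060 without KO 2). The list median was 0.26, and the count of risen members was 12 with rescue 2 alone.

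Interferon-stimulated genes rose in 23 of 48 tested members of 50, beside 8.35% of all genes. These genes are induced by interferon and encode antiviral sensors and effectors. The other 25 did not pass, and the median log2 fold change over the 48 was 0.49. The median difference from the KO mean was 0.53 in rescue 1 and 0.41 in rescue 2, while wild type was at -1.32. Rescue 1 was above rescue 2 in 39 of the 48, the opposite order to the hypoxia genes. Interferon-stimulated genes that rose numbered 6 without KO 2, 25 with rescue 1 alone and 18 with rescue 2 alone. With rescue 2 alone 1 member was called lower.

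Oas3, a sensor of double-stranded RNA (chr5:120753098-120777661), was at 23.5 and 23 CPM in wild type, 94.9 and 80.9 in KO cells and 166 and 179 in rescue cells. The groups did not overlap, with wild type lowest and rescue highest, and the log2 fold change over the KO was 0.97 (SE 0.10, adjusted p = 7.5e-04). Ifi44, an antiviral GTPase-like protein gene, had 44 and 39.1 CPM in the KO libraries and 79.3 and 83.2 in the rescue (log2 fold change 0.96, SE 0.10, adjusted p = 9.4e-04), with 13.1 and 15.6 in wild type. Trim30a, a ubiquitin ligase family member, had 41 and 36.4 CPM without the rescue and 74.6 and 65 with it (log2 fold change 0.84, SE 0.11, adjusted p = 0.002). Irf7, the transcription factor that amplifies type I interferon, had 42.5 and 42.4 CPM in KO 1 and KO 2 and 72 and 66.1 in rescue 1 and rescue 2 (log2 fold change 0.70, SE 0.10, adjusted p = 0.002), and rescue 1 was the highest library. Each of these genes was lowest in wild type. Xaf1, a pro-apoptotic interferon target, had 105 and 93.1 CPM in the KO libraries and 175 and 157 in the rescue (log2 fold change 0.74, SE 0.10, adjusted p = 0.002). Among the 23 called members the wild-type mean lay above the KO mean in Isg20, Oasl1 and Samd9l. Isg20, an exonuclease, was in wild type at 105 and 87.6 CPM against 40.1 and 38.6 CPM without the rescue and 61.9 and 96.8 with it (log2 fold change 1.01, SE 0.17, adjusted p = 0.005, and 0.060 without KO 2); it was named after its values were seen. Reads shared within the Oas and Ifit families make their single-gene values uncertain.

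**Figure D5:**
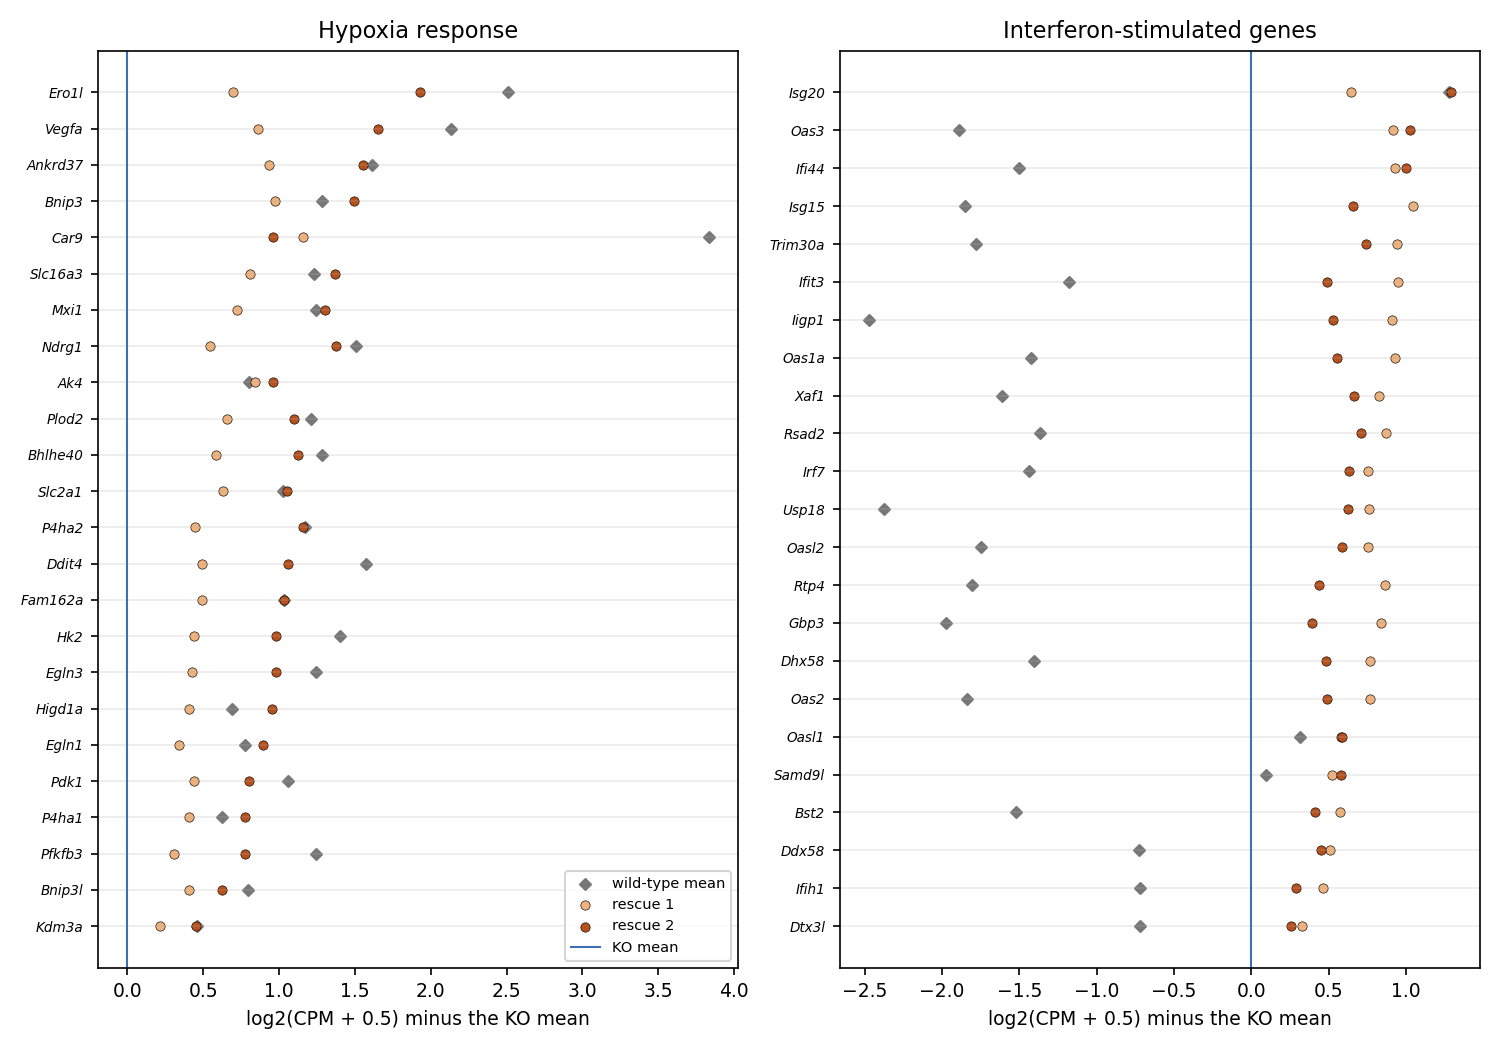
Called members of the hypoxia list (24, left) and of the interferon-stimulated list (23, right), as log2(normalised CPM + 0.5) minus the KO mean in rescue 1 (light), rescue 2 (dark) and the wild-type mean (grey diamond), ordered by fold change. Wild-type diamonds lie to the right of the KO line for the hypoxia genes shown and to the left for most interferon-stimulated genes, while the rescue points lie to the right in both.

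The interferon-stimulated response element was searched as GAAANNGAA on both strands in the same promoter windows. It was found in 23 of 43 promoters (53.5%) of 36 matched members, against 6.97% of promoters of tested genes and 8.56% of all promoters. The Oas3 promoter (chr5:120777610-120777909, minus strand) and the Ifi44 promoter (chr3:151749861-151750160, minus strand) are shown because these genes had the smallest adjusted p of the list. Capitals mark the matches, 2 that overlap in Oas3 and 1 on the opposite strand in Ifi44.
Oas3: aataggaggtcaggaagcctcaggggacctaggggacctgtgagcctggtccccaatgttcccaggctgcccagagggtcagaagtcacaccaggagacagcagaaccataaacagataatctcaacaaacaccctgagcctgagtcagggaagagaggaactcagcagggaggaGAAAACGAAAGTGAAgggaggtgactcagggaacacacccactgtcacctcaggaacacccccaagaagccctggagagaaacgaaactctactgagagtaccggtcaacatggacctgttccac
Ifi44: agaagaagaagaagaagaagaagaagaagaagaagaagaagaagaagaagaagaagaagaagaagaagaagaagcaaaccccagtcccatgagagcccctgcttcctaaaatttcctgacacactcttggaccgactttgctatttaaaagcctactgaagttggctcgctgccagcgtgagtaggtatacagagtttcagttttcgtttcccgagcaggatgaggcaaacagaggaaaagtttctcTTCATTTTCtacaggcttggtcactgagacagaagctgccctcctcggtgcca

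Genes of MHC class I presentation rose in 8 of 20 tested, beside 8.35% of all genes, and 12 did not pass. The median log2 fold change over the 20 was 0.28 (0.27 in rescue 1, 0.26 in rescue 2 and -0.90 in wild type, from the KO mean). B2m, the invariant light chain, was at 511 and 534 CPM in wild type, 962 and 1007 in KO cells and 1334 and 1404 in rescue cells. The groups did not overlap and the log2 fold change was 0.48 (SE 0.08, adjusted p = 0.005, and 0.053 without KO 2). H2-K1, a classical heavy chain, had 508 and 529.8 CPM in KO 1 and KO 2 and 695 and 825 in rescue 1 and rescue 2 (log2 fold change 0.55, SE 0.10, adjusted p = 0.006, and 0.058 without KO 2). H2-T23, a non-classical heavy chain, had 17.9 and 18.2 CPM in the KO libraries and 30.6 and 27.4 in the rescue (log2 fold change 0.69, SE 0.12, adjusted p = 0.006, and 0.057 without KO 2). Heavy chain genes share sequence, so their reads may be split between them. Tap1, a subunit of the peptide transporter, had 47.6 and 37 CPM without the rescue and 71.3 and 88.4 with it (log2 fold change 0.91, SE 0.13, adjusted p = 0.003). The immunoproteasome gene Psmb9, which overlaps Tap1 on the other strand, had 6.94 and 5.39 CPM in KO 1 and KO 2 and 12.9 and 16.4 in rescue 1 and rescue 2 (log2 fold change 1.23, SE 0.21, adjusted p = 0.004, and 0.060 without KO 2). Nlrc5, the transactivator of the class, had 99.9 and 89.2 CPM in the KO libraries and 111 and 117 in the rescue and did not pass (adjusted p = 0.062). Risen members of the list numbered 1 without KO 2.

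Genes of DNA replication fell in 10 of 42 tested, beside 5.88% of all genes, and the other 32 did not pass. Rescue 2 was below rescue 1 in 34 of the 42, and the median log2 fold change over the list was -0.25 (-0.18 in rescue 1, -0.33 in rescue 2 and -0.73 in wild type, from the KO mean). Mcm5, a subunit of the replicative helicase, was at 107 and 137 CPM in wild type, 341 and 306 in KO cells and 238 and 203 in rescue cells. The groups did not overlap and the rescue lay between, with a log2 fold change of -0.56 (SE 0.12, adjusted p = 0.013, and 0.060 to 0.099 without KO 1 or KO 2). Mcm2, another subunit, had 262 and 247 CPM without the rescue and 207 and 176 with it (log2 fold change -0.41, SE 0.10, adjusted p = 0.021, and 0.086 to 0.136 without KO 1, KO 2 or rescue 2). Rpa1 and Rpa2 encode single-strand DNA binding proteins. Rpa1 had 193 and 188 CPM in KO 1 and KO 2 and 149.5 and 126 in rescue 1 and rescue 2 (log2 fold change -0.47, SE 0.10, adjusted p = 0.013, and 0.079 to 0.082 without KO 1 or KO 2). Rpa2 had 49 and 46.8 CPM in the KO libraries and 33 and 31.2 in the rescue (log2 fold change -0.58, SE 0.12, adjusted p = 0.012, and 0.072 to 0.079 without KO 1 or KO 2). In these 4 genes both rescue libraries lay below both KO libraries and above both wild-type libraries. Tyms, which makes thymidylate, had 57.7 and 51 CPM without the rescue and 43.2 and 31.2 with it (log2 fold change -0.55, SE 0.14, adjusted p = 0.025, and 0.051 to 0.165 without WT 1, WT 2, KO 1, KO 2 or rescue 2 or with only the 4 KO and rescue libraries). The members that fell numbered 5 without WT 1, 5 without WT 2, 0 without KO 1 (edgeR, with 7 at an unadjusted p under 0.05), 0 without KO 2 (edgeR, with 27 at an unadjusted p under 0.05), 3 with rescue 1 alone, 22 with rescue 2 alone, 5 with only the 4 KO and rescue libraries and 17 with no filter.

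Ribosome biogenesis genes fell in 10 of 32 tested, beside 5.88% of all genes, with a median log2 fold change of -0.34 (-0.15 in rescue 1, -0.49 in rescue 2 and -0.76 in wild type, from the KO mean), and rescue 2 was below rescue 1 in 31 of the 32. Rrp12, needed for export of ribosomal subunits, had 48.4 and 40.2 CPM in KO 1 and KO 2 and 31.5 and 19.6 in rescue 1 and rescue 2 (log2 fold change -0.80, SE 0.18, adjusted p = 0.017, and 0.060 to 0.126 without KO 1 or KO 2). Wild type was lower still, at 13.1 and 15.5. Nhp2, a protein of H/ACA ribonucleoproteins, had 69.5 and 72.8 CPM in the KO libraries and 53.9 and 42 in the rescue (log2 fold change -0.57, SE 0.12, adjusted p = 0.013, and 0.056 to 0.103 without KO 1 or KO 2). Polr1a, the largest subunit of RNA polymerase I, had 151 and 141 CPM without the rescue and 124 and 104 with it (log2 fold change -0.36, SE 0.10, adjusted p = 0.033, and 0.050 to 0.194 without WT 1, WT 2, KO 1, KO 2 or rescue 2, in DESeq2 or with only the 4 KO and rescue libraries). Gnl3, nucleostemin, had 98.2 and 100.2 CPM in KO 1 and KO 2 and 81.8 and 71.8 in rescue 1 and rescue 2 (log2 fold change -0.37, SE 0.09, adjusted p = 0.026, and 0.051 to 0.146 without WT 1, WT 2, KO 1, KO 2 or rescue 2, in DESeq2 or with only the 4 KO and rescue libraries). Rescue 2 was the lower rescue library in each. Tsr1, a factor of small subunit maturation, had 64.5 and 61.4 CPM in the KO libraries and 52.8 and 35.4 in the rescue (log2 fold change -0.51, SE 0.14, adjusted p = 0.037, and 0.074 to 0.197 without WT 1, WT 2, KO 1, KO 2 or rescue 2 or with only the 4 KO and rescue libraries). The members that fell numbered 2 without WT 1, 2 without WT 2, 0 without KO 1 (edgeR, with 11 at an unadjusted p under 0.05), 0 without KO 2 (edgeR, with 19 at an unadjusted p under 0.05), 2 with rescue 1 alone, 24 with rescue 2 alone, 4 in DESeq2, 2 with only the 4 KO and rescue libraries and 18 with no filter.

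Genes of BMP signalling and its ID targets moved in both directions. Of 14 tested of 19, 3 rose (Hey1, Smad7 and Bmpr2) and 5 fell (Atoh8, Grem1, Id1, Id2 and Id3), beside 8.35% and 5.88% of all genes. Id3, an inhibitor of basic helix-loop-helix factors, was at 23 and 23.4 CPM in wild type, 86.8 and 104 in KO cells and 54 and 36.9 in rescue cells. The rescue lay between KO and wild type, with a log2 fold change of -1.06 (SE 0.15, adjusted p = 0.002). Id2, of the same family, was lower in the KO than in wild type (19.97 and 20.9 against 42.7 and 45.4 CPM). It fell further, to 11.5 and 14 (log2 fold change -0.68, SE 0.14, adjusted p = 0.011, and 0.080 without KO 2). Grem1, a secreted BMP antagonist, followed that second pattern, at 19.2 and 20.5 in wild type and 13.8 and 16.3 CPM without the rescue and 4.57 and 6.39 with it (log2 fold change -1.45, SE 0.20, adjusted p = 0.002). Hey1, a Notch and BMP target, rose from 5.93 and 6.42 to 12 and 21 CPM (log2 fold change 1.42, SE 0.24, adjusted p = 0.005), and rescue 2 was at the wild-type level of 21.1 and 19. The members that rose numbered 1 without KO 2 and 1 with rescue 1 alone, and those that fell 3 without KO 2.

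Keratins, vimentin and E-cadherin did not move together. Of 17 tested members of 24 on a list of epithelial and mesenchymal genes, Krt8, Krt18, Vim and Zeb2 rose and Cdh1 fell, beside 8.35% and 5.88% of all genes. Cdh1, E-cadherin of epithelial junctions, was at 363 and 393 CPM in wild type, 176 and 233 in KO cells and 141 and 97.6 in rescue cells. The groups did not overlap, and rescue 2 was the lowest library (log2 fold change -0.78, SE 0.16, adjusted p = 0.011, and 0.115 without KO 2). Krt18, an epithelial keratin, had 1288 and 1225 CPM in KO 1 and KO 2 and 1765 and 2027 in rescue 1 and rescue 2 (log2 fold change 0.59, SE 0.10, adjusted p = 0.004, and 0.054 without KO 2). Vim, the mesenchymal intermediate filament, had 4159 and 4104 CPM in the KO libraries and 4841 and 5703 in the rescue (log2 fold change 0.35, SE 0.10, adjusted p = 0.040, and 0.078 to 0.179 without WT 1, WT 2, KO 1, KO 2 or rescue 2 or with only the 4 KO and rescue libraries). Rescue 2 lay above both wild-type libraries (5077 and 5105). Zeb2, a repressor of epithelial genes, had 45.2 and 41.4 CPM without the rescue and 56.7 and 53.3 with it (log2 fold change 0.34, SE 0.10, adjusted p = 0.036, and 0.065 to 0.227 without WT 1, WT 2, KO 1, KO 2 or rescue 1, in DESeq2 or with only the 4 KO and rescue libraries). On this list the risen members numbered 1 without WT 1, 1 without WT 2, 2 without KO 1, 0 without KO 2 (edgeR, with 5 at an unadjusted p under 0.05), 2 with rescue 1 alone, 8 with rescue 2 alone, 1 with only the 4 KO and rescue libraries and 7 with no filter, and those that fell 0 without KO 2 (edgeR, with 1 at an unadjusted p under 0.05).

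Genes with the widest gap between the rescue libraries were listed by that gap, so they carry no test of it. Among the 8 most above rescue 2 in rescue 1 were Clrn3, Atoh8, Lgals4 and Myo15b, described above, for which rescue 2 had fallen further from the KO. Hist2h4, a histone gene, had 9.95 and 8.94 CPM in KO 1 and KO 2 and 23.1 and 7.46 in rescue 1 and rescue 2. Plekhh2 had 56.9 and 74.6 CPM in the KO libraries and 178 and 67.7 in the rescue. In both genes rescue 1 stood above the KO and rescue 2 did not. Cdh5, the endothelial cadherin, had 15.9 and 30.5 CPM without the rescue and 37.8 and 14.6 with it, and the KO libraries were themselves spread. Gsta4, a glutathione transferase, had 4.01 and 10.4 CPM in KO 1 and KO 2 and 5.2 and 2 in rescue 1 and rescue 2. The 8 most above rescue 1 in rescue 2 included Pgf, Acap1 and Kbtbd11. Chd5, a chromatin remodeller, had 6.27 and 3.9 CPM in the KO libraries and 6.34 and 23.7 in the rescue, with 35.1 and 27.6 in wild type. Syt17, a synaptotagmin, had 4.35 and 4.13 CPM without the rescue and 4.69 and 14.6 with it, with 25.1 and 22.7 in wild type. Rescue 1 was close to the KO level in both genes and rescue 2 was not. Fgfr1, a fibroblast growth factor receptor, had 23.2 and 11.5 CPM in KO 1 and KO 2 and 13.4 and 49 in rescue 1 and rescue 2, and rescue 2 exceeded the 23.2 and 22.9 of wild type. Dlc1, a GTPase-activating protein, had 9.95 and 5.27 CPM in the KO libraries and 10.5 and 33.2 in the rescue. Fam78b had 10.2 and 8.82 CPM without the rescue and 10.3 and 27.8 with it, and again rescue 1 was close to the KO. Of these 5 genes Dlc1 was called in the rescue against the KO (log2 fold change 1.47, SE 0.42, adjusted p = 0.040, and 0.066 to 0.436 without WT 1, WT 2, KO 1, KO 2 or rescue 2, in DESeq2 or with only the 4 KO and rescue libraries).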

How the data were processed

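Gene counts of 6 RNA-seq libraries from KP2 cells were used. Per the labels' protocols RNA was taken with Trizol and selected with oligo-dT. The submitters' processing notes name bcl2fastq, STAR 2.0.4b, Subread, featureCounts 1.45 and GRCm38, while strand setting and annotation release were not given in the sources used here. For 41388 genes the authors deposited a count, a CPM and an RPKM, per the file headers. The deposited CPM and RPKM were used only to check that they follow from the counts (largest differences 3.3e-11 and 7.6e-11). Symbols came from GENCODE M21, with 40254 identifiers matched. Gene positions, strands and overlaps came from the coordinates deposited with the counts.

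Genes passing edgeR's filterByExpr (minimum count 10, minimum total 15) were tested, 12339 in all, with 29049 not tested. The main test was edgeR 4.0.16 (R 4.3.3), quasi-likelihood, TMM scaling, all 6 libraries with 1 mean per group, 3 residual degrees of freedom and adjustment over all genes tested. The SE is the log2 fold change over the square root of F. Differences from the KO mean in the text are of log2 CPM with a prior count of 2, and in gene-level figures of log2(CPM + 0.5). Alternatives were DESeq2 1.42.0, RLE size factors, other filters, the 4 KO and rescue libraries only, a replicate block, and each library left out.

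The gene lists, the comparison and the naming rule were chosen with earlier results of these data known. The rule named Irak4 and called members of its pathway, the 12 highest and 12 lowest fold changes (called, mean of at least 5 CPM over the 4 KO and rescue libraries, established symbol, groups without overlap), the called members of a list with its smallest adjusted p values (5 at most), and the 8 genes most apart in each direction between the rescue libraries. It gave 111 genes. Named outside the rule, after their values were seen, were Areg, Bax, Bmpr2, Car9, Ccl5, Cd44, Cebpb, Col3a1, Csf2, Cxcl1, Egln3, Egr1, Has2os, Id1, Irak1, Isg20, Krt19, Lama3, Lamb2, Map3k7, Mif, Myc, Narf, Nfkbia, Nlrc5, Oasl1, Pfkfb4, Plod1, Samd9l, Smad7, Stc2, Timp2, Tnc, Traf6, Twf1, Vegfa and the cell markers. Some genes, of those the rule named and of others, are not reported here. Of the 111, 28 overlap a gene on the other strand, whose reads cannot be told apart without a strand setting.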

Additional observations from a re-analysis of the deposited data

How the results depend on the processing

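With the 4 KO and rescue libraries alone 667 genes were higher and 377 lower, and DESeq2 called 796 higher and 378 lower. Without a filter edgeR called 1346 genes higher and 1076 lower, and with a stricter filter 992 and 663. Leaving out 1 library gave between 139 and 1849 genes higher and between 64 and 1596 lower. The cause was not tested. With a replicate block 765 genes were higher and 429 lower, but whether the numbers pair the samples is not stated. Deviations of same-numbered libraries correlated at -0.19 between rescue and KO, -0.15 between rescue and wild type and 0.04 between KO and wild type. Each group gives 1 such difference, so these correlations cannot decide whether the numbers pair the samples. Irak4 was called in all 12 alternatives, with a log2 fold change of 3.33 to 4.55. Counts of genes higher or lower stayed within 1.5 times with RLE size factors, no filter and a stricter filter, as did the higher count in DESeq2 and with the block. With the block, called members fell from 10 to 6 for DNA replication, from 4 to 1 for mitosis, from 10 to 6 for ribosome biogenesis and from 4 to 1 risen for epithelial and mesenchymal genes. Hist2h4, Cdh5 and Fgfr1, none of them called in the rescue against the KO, changed sign when 1 library was left out: log2 fold changes ran from -0.35 to 1.28 for Hist2h4, from -0.63 to 0.74 for Cdh5 and Fgfr1 went from 0.81 to -0.41 without rescue 2. Of the 110 named genes other than Irak4, 57 lost their call without KO 2, 29 without KO 1, 21 without rescue 2, 15 with only the 4 libraries, 13 without WT 1, 13 without WT 2, 12 in DESeq2, 9 with the block, 1 without rescue 1 and 1 without a filter. Of the 111 named genes, Irak4 among them, 103 were called in the main test, and only those could lose a call. With 2 libraries a group and totals of 7605328 to 11505983 counts, a gene that did not pass is not shown to be unchanged.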

Other observations

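Targets of ATF4, the transcription factor of amino acid and endoplasmic reticulum stress, rose in 10 of 25 tested members (8.35% of all genes), with a median log2 fold change of 0.48. Vldlr, a lipoprotein receptor, had 66.1 and 57.6 CPM in KO 1 and KO 2 and 110.1 and 175 in rescue 1 and rescue 2 (log2 fold change 1.20, SE 0.17, adjusted p = 0.002), between the KO and the 254 and 234 of wild type. Pycr1, of proline synthesis, had 15 and 11 CPM in the KO libraries and 19.3 and 31.8 in the rescue (log2 fold change 0.95, SE 0.22, adjusted p = 0.016, and 0.081 to 0.131 without KO 2 or rescue 2). Cth, of cysteine synthesis, had 8.02 and 7.33 CPM without the rescue and 11.5 and 16.6 with it (log2 fold change 0.87, SE 0.19, adjusted p = 0.015, and 0.062 to 0.108 without KO 1, KO 2 or rescue 2). Nupr1, a stress-induced nuclear protein, had 74.2 and 68.5 CPM in KO 1 and KO 2 and 93.7 and 112 in rescue 1 and rescue 2 (log2 fold change 0.52, SE 0.10, adjusted p = 0.009, and 0.101 without KO 2). In these 4 genes rescue 2 was the higher rescue library. Ddit4, an inhibitor of mTORC1, had 104 and 92.5 CPM in the KO libraries and 138 and 205 in the rescue (log2 fold change 0.80, SE 0.16, adjusted p = 0.010, and 0.102 without KO 2). Cebpb was the member that fell. The members that rose numbered 1 without KO 2, 3 with rescue 1 alone, 18 with rescue 2 alone and 19 with no filter, and those that fell 0 without KO 1 (edgeR, with 1 at an unadjusted p under 0.05), 0 without KO 2 (edgeR, with 1 at an unadjusted p under 0.05) and 0 in DESeq2 (DESeq2, with 1 at an unadjusted p under 0.05).

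Of 18 tested p53 targets 5 rose, beside 8.35% of all genes, with a median of -0.05. Cdkn1a, the cell cycle inhibitor p21, had 35.3 and 19.1 CPM without the rescue and 54.9 and 111 with it (log2 fold change 1.57, SE 0.30, adjusted p = 0.008, and 0.078 without KO 2), below wild type at 208 and 176. Plk2, a stress-induced kinase, had 24.2 and 18.5 CPM in KO 1 and KO 2 and 36.9 and 51 in rescue 1 and rescue 2 (log2 fold change 1.03, SE 0.16, adjusted p = 0.004, and 0.051 without KO 2). Gadd45a, of the same response, had 24.6 and 30.7 CPM in the KO libraries and 45.1 and 45.8 in the rescue (log2 fold change 0.73, SE 0.13, adjusted p = 0.005, and 0.051 without KO 1). Bax, the pro-apoptotic target, had 82 and 87.4 CPM without the rescue and 75.2 and 73.2 with it and did not pass (adjusted p = 0.167). The members that rose numbered 2 without KO 1, 1 without KO 2, 3 with rescue 1 alone, 3 in DESeq2 and 3 with only the 4 KO and rescue libraries. Mitosis genes fell in 4 of 34 tested (5.88% of all genes). Cdc20, an activator of the anaphase ligase, had 144 and 132 CPM in KO 1 and KO 2 and 113 and 90.7 in rescue 1 and rescue 2 (log2 fold change -0.44, SE 0.11, adjusted p = 0.023, and 0.093 to 0.153 without KO 1, KO 2 or rescue 2). The members that fell numbered 1 without WT 1, 1 without WT 2, 0 without KO 1 (edgeR, with 3 at an unadjusted p under 0.05), 0 without KO 2 (edgeR, with 10 at an unadjusted p under 0.05), 0 with rescue 1 alone (edgeR, with 7 at an unadjusted p under 0.05), 1 in DESeq2 and 1 with only the 4 KO and rescue libraries. Of 24 cholesterol synthesis and uptake genes tested, 2 were called lower, Dhcr7 and Ebp, a share near the 5.88% of all genes. Rescue 2 was below rescue 1 in 24 of 24, an order of single libraries that was not counted over all genes. Ebp, a sterol isomerase gene, had a log2 fold change of -0.54 (SE 0.15, adjusted p = 0.032, and 0.062 with only the 4 KO and rescue libraries). Its call was also lost without WT 1, WT 2, KO 1, KO 2 or rescue 2, with log2 fold changes from -0.60 to -0.29. Dhcr7, the last enzyme of the pathway, had 63.4 and 63.7 CPM in the KO libraries and 47.6 and 44.5 in the rescue (log2 fold change -0.46, SE 0.10, adjusted p = 0.013, and 0.068 to 0.096 without KO 1 or KO 2), below both wild-type libraries (49.9 and 57.6). The members that fell numbered 1 without WT 1, 1 without WT 2, 0 without KO 1 (edgeR, with 4 at an unadjusted p under 0.05), 0 without KO 2 (edgeR, with 11 at an unadjusted p under 0.05), 1 with rescue 1 alone, 14 with rescue 2 alone, 1 with only the 4 KO and rescue libraries and 8 with no filter.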
